A study of Mus musculus with 4 samples.

Results

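Glucocorticoid-responsive genes were followed in dorsal skin of male C57B6 mice at 2 times within telogen, when hair follicles rest. The 10 genes were Fkbp5, Tsc22d3, Zbtb16, Sgk1, Mt1, Mt2, Cdkn1a, Klf9, Ddit4 and Pdk4, taken as a list and matched to probe sets that the platform annotation pairs with that 1 symbol alone. All 10, of 18193 genes in all, had such a set, with 25 sets together, and all 10 lay above the filter on dim genes. Middle telogen was postnatal day 54 (P54) and late telogen postnatal day 59 (P59), with 2 arrays each, and no treatment or engineered allele is given for either. The labels call the arrays biological replicates without naming the animals. The p-values therefore rest on the spread between these samples, which may in part be technical. The test also pools part of that spread over all genes.

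Glucocorticoids, corticosterone in the mouse, are adrenal steroids that also arise in skin. They enter the cell, bind the glucocorticoid receptor, release it from its chaperones and send it to the nucleus, where it binds response elements as a dimer and raises or lowers transcription. In skin they dampen inflammation, slow keratinocyte and fibroblast growth and act on the hair cycle. Several of the 10 genes also answer to other signals: the metallothioneins to zinc, Cdkn1a to p53, Ddit4 to low oxygen and energy stress, and Pdk4 to fasting.

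Intensity values were on a linear scale as deposited and were taken to log2, so that a difference of 1 is a doubling. Array medians over all probe sets lay between 6.02 and 6.12. Skin markers were high on all 4 arrays, Krt10 of suprabasal keratinocytes between 13.99 and 14.14 and the dermal collagen gene Col1a1 between 14.46 and 14.52. P59 replicate 2 stood apart in the control probe sets that read the 3' and the 5' end of a transcript, a gap that widens when RNA is fragmented. The log2 gap between the 3' and 5' sets of Gapdh was 0.34 and 0.20 on P54 replicates 1 and 2, 0.23 on P59 replicate 1 and 4.57 on P59 replicate 2. For Actb it was 0.45 and 0.52, then 0.18, and 1.64 on P59 replicate 2. Differences of the 10 genes in their brightest sets are therefore given with and without that array. So are those of other genes and lists where its absence turns the sign or moves the value by over 1.5 times. Differences of further sets of a member include that array. Its part in them was not tested.

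None of the 10 genes passed the adjusted threshold between P59 and P54. In limma's fit over 10916 genes the count of members past an adjusted p of 0.05 was 0, against 0.0183% of all genes tested. At an unadjusted p under 0.05 there were 2, Pdk4 and Mt1, both higher at P59. Of all genes tested 6.49% met that limit, 3.47% higher and 3.01% lower. The median log2 difference of the 10 genes was 0.07, beside 0.05 over all genes tested. Without P59 replicate 2 these medians were -0.26 and -0.003. By sign 6 members were higher and 4 lower at P59, beside 58.4% and 41.6% of all genes. The metabolic switch gene Pdk4, the receptor cochaperone gene Fkbp5 and both metallothionein genes lay above both P54 arrays on both P59 arrays, the cell cycle inhibitor gene Cdkn1a lay below them, and the other 5 overlapped. Separate groups with P59 above were found for 18.9% of all genes and with P59 below for 14.8%, or 33.7% in either direction.

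**Figure D1:**
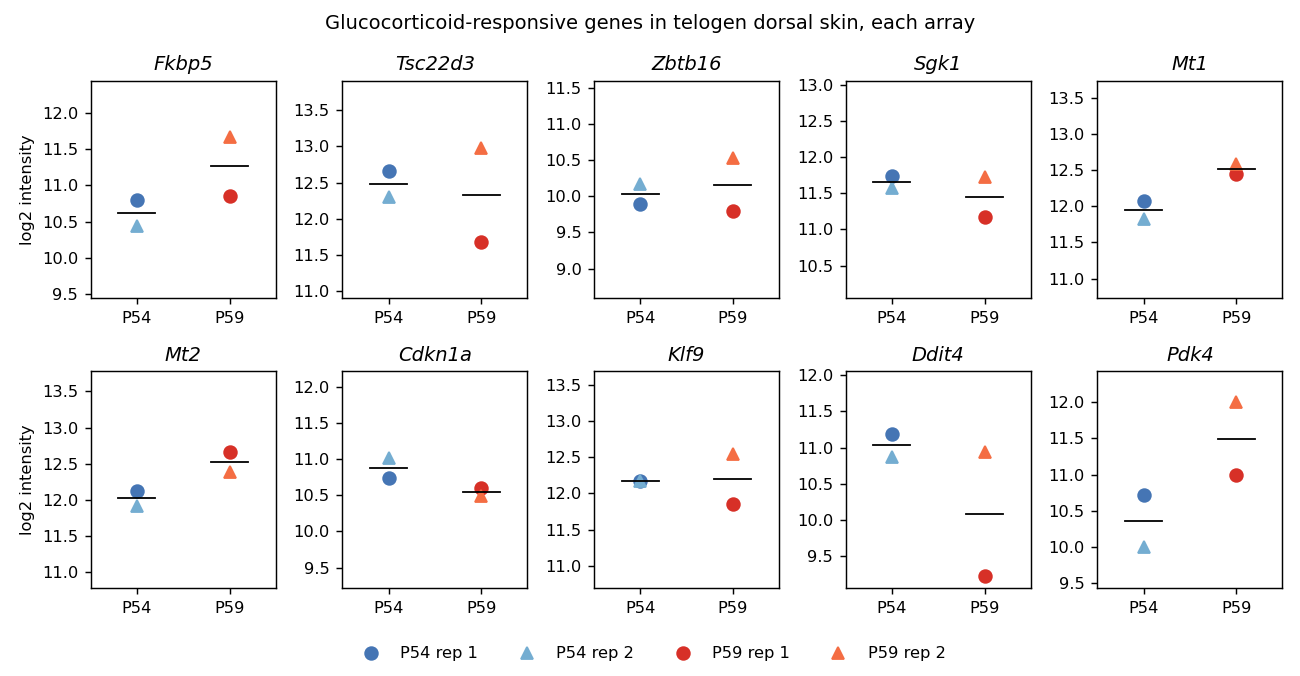
Log2 intensity of the 10 genes on each array, P54 on the left and P59 on the right of each panel, with a bar at each group's mean and 3 log2 units on every axis. Fkbp5, Mt1, Mt2 and Pdk4 have both P59 points above both P54 points, while the P59 points of Tsc22d3, Zbtb16 and Klf9 lie on either side of the P54 pair.

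Fkbp5 (probe set 1416125_at) encodes a cochaperone that lowers the receptor's affinity for hormone and so closes a feedback loop. Its log2 intensity was 10.80 and 10.45 on the P54 arrays and 10.85 and 11.68 on P59 replicates 1 and 2. P59 replicate 1 lay only just above the higher P54 array, and P59 replicate 2 well above all others. The difference was 0.64 (SE 0.30, 95% interval -0.02 to 1.30), or 1.56-fold, with an unadjusted p of 0.0568 and an adjusted p of 0.787 in limma. Without P59 replicate 2 it was 0.23.

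Tsc22d3 (1420772_a_at) encodes GILZ, a leucine zipper protein that carries much of the anti-inflammatory action of glucocorticoids. Its log2 intensity was 12.66 and 12.30 on the P54 arrays, 11.68 on P59 replicate 1 and 12.97 on P59 replicate 2. The P59 arrays thus held both the lowest and the highest value of the 4. Their mean differed from that of P54 by -0.16 (95% interval -0.98 to 0.67, limma adjusted p = 0.979). Leaving out P59 replicate 1 turned the difference to 0.49, and leaving out P59 replicate 2 made it -0.81 (limma adjusted p = 0.490). Of all genes tested, 6.35% had an unadjusted p under 0.05 with that array left out.

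Zbtb16 (1439163_at), which encodes the transcriptional repressor PLZF, had the same order of P59 arrays. Values were 9.89 and 10.18 at P54, 9.79 on P59 replicate 1 and 10.52 on P59 replicate 2. The difference of 0.13 (95% interval -0.50 to 0.75) became -0.24 without P59 replicate 2. Klf9 (1428288_at), a zinc finger factor that slows keratinocyte division and links hormone signals to the daily clock, was at 12.18 on both P54 arrays, at 11.85 on P59 replicate 1 and at 12.55 on P59 replicate 2. The P59 values lay to either side of the P54 pair. The mean difference of Klf9 was 0.02 (95% interval -0.58 to 0.62), at -0.33 without P59 replicate 2 and 0.37 without P59 replicate 1.

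Sgk1 (1416041_at) encodes a kinase that raises sodium and nutrient transport and is induced by both glucocorticoids and mineralocorticoids. Log2 intensity was 11.75 and 11.58 at P54, 11.17 on P59 replicate 1 and 11.72 on P59 replicate 2, so that 1 P59 array lay between the P54 arrays and the other below them. The difference was -0.22 (95% interval -0.79 to 0.35, limma adjusted p = 0.952), -0.49 without P59 replicate 2 and 0.06 without P59 replicate 1. Sgk1 was the member whose promoter held the full palindrome that the receptor dimer reads, AGAACA and TGTTCT with 3 bases between them, which was found in 3 of 32851 promoter windows (0.00913%). The windows cover 250 bases before to 50 after each start of a RefSeq gene (GRCm38.p6), both strands were searched, and 9 of the 10 members have 17 windows among them, 6 of these of Sgk1. The palindrome begins 189 bases before 1 of the 6 starts and is shown in capitals, on the + strand of chr10:21993661-21993760.
Sgk1: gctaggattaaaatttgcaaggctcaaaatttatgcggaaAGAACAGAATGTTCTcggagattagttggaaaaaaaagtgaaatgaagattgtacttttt

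The core of that palindrome, ACANNNTGT, stands in 6.85% of all windows. Among the members it was found in Mt1, 92 bases before the start, and in 2 windows of Sgk1, of which 1 holds the full element. A single arm, TGTTCT, stands in 19% of all windows and was found in 3 windows of Sgk1 and 1 of Tsc22d3, where it begins 185 bases before the start, beside those inside the palindrome itself. Such matches are letters in a window, and these arrays do not measure binding.

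The metallothionein genes Mt1 (1422557_s_at) and Mt2 (1428942_at) encode small cysteine-rich proteins that bind zinc and copper and buffer oxidants, and both answer to glucocorticoids and to metals. Of the 4 members higher on both P59 arrays, these were the ones with the least spread between those arrays. The P54 arrays read 12.08 and 11.82 for Mt1, and the P59 arrays 12.44 and 12.59. For Mt2 the P54 arrays read 12.13 and 11.92, and the P59 arrays 12.67 and 12.39. For both genes the groups did not overlap. The differences were 0.57 (SE 0.23, 1.48-fold, limma unadjusted p = 0.0339, adjusted p = 0.723) for Mt1 and 0.51 (SE 0.23, 1.42-fold, limma unadjusted p = 0.0559, adjusted p = 0.782) for Mt2. Without P59 replicate 2 they were 0.49 and 0.64. By its suffix, the Mt1 set may also read transcripts of related genes, and Mt2 is a close relative. A second, much dimmer set of Mt1, at 7.55 and 6.76 at P54 and 5.58 and 6.78 at P59, differed by -0.98.

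The 250 bases before the RefSeq starts of Mt1 and Mt2 are shown because these neighbours carry metal response elements, read by the zinc sensor MTF1. Capitals mark the elements searched, TGCACNC or TGCGCNC on either strand, which stand in 12.6% and 15.4% of all windows. The stretches are chr8:94178839-94179088 for Mt1 and chr8:94172368-94172617 for Mt2, both on the + strand of GRCm38.p6.
Mt1: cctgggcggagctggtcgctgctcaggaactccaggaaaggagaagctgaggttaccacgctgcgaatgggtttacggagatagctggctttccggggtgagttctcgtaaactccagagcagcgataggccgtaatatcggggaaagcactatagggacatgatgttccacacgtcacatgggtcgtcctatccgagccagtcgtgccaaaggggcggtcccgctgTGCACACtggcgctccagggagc
Mt2: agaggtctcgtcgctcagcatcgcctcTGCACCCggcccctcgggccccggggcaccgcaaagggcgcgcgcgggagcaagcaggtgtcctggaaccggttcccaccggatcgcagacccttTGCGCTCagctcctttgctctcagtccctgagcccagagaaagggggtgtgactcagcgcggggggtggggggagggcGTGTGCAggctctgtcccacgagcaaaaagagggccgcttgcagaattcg

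The stretch of Mt2 holds 3 matches, which begin 223, 128 and 50 bases before the start, and that of Mt1 holds 1, at 23 bases. Mt1 has a further 2 matches and Mt2 a further 1 after the start. TGCGCNC was not particular to these genes among the members. It was also found in Ddit4, 184 bases before the start, and after a start of Sgk1. Both of those genes were lower on average at P59, and the part of these elements in any of the values was not tested. Other genes of metal handling were read from a list of 7, of which 5 were tested. Of these 4 were higher and 1 lower, 0 passed the adjusted threshold of limma and 1 had an unadjusted p under 0.05. That was the epithelial metallothionein gene Mt4, at 9.60 and 9.49 at P54 and 9.99 and 10.53 at P59 (difference 0.72, limma adjusted p = 0.599, 0.45 without P59 replicate 2). The zinc exporter gene Slc30a1 differed by 0.24 and the zinc sensor gene Mtf1 by -0.001 (-0.15 without P59 replicate 2). Basal keratinocytes are among the cells in which metallothioneins are made. Their markers summed to 49023 and 52558 at P54 and 41163 and 39399 at P59 on the linear scale. The part of these cells in the values of Mt1 and Mt2 was not tested.

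Pdk4 (1417273_at) encodes the kinase that shuts the pyruvate dehydrogenase complex and turns cells from glucose to fatty acids. It had the largest positive difference of the 10 genes. On the linear scale its intensity was 1676 and 1023 at P54, 2033 on P59 replicate 1 and 4111 on P59 replicate 2. Both P59 arrays lay above both P54 arrays, and P59 replicate 2 far above. The mean log2 difference was 1.14 (SE 0.35, 95% interval 0.36 to 1.93), or 2.21-fold, with an unadjusted p of 0.00871 and an adjusted p of 0.506 in limma. Without P59 replicate 2 it was 0.63 (limma adjusted p = 0.847), and without P59 replicate 1 it was 1.65 and passed (limma adjusted p = 0.0309). That call rests on P59 replicate 2 alone, the array with the wide gap in its control sets, in a fit in which 402 genes passed and 18.6% of all genes had an unadjusted p under 0.05.

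Pdk4 is abundant in muscle and fat, both of which lie within dorsal skin, and in such bulk tissue fewer cells of a type and less RNA per cell cannot be told apart. Summed linear intensities of 10 skeletal muscle markers were 152170 and 123590 at P54 and 157280 and 117190 at P59. The 8 adipocyte markers on the array summed to 33356 and 28853 at P54 and 27999 and 29457 at P59. All 10 muscle and all 8 adipocyte markers were above the filter. The part of muscle and fat in the values of Pdk4 was not tested. Genes of fasting and fatty acid oxidation, a list of 16 with 13 tested, had a median difference of 0.20 (0.11 without P54 replicate 2), with 9 higher and 4 lower. In that list 0 genes passed limma's adjusted threshold and 1 had an unadjusted p under 0.05, Angptl4, which encodes an inhibitor of lipoprotein lipase (0.68, limma adjusted p = 0.723, 0.31 without P59 replicate 2). Of the other kinases of the complex, Pdk1 differed by 0.34, Pdk3 by 0.16 and Pdk2 by -0.37. With P59 replicate 2 left out the differences were 0.18, 0.025 and 0.44. Pdk2 was also higher, by 0.15, without P54 replicate 1, so its sign turned when either of these arrays was left out.

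Ddit4 (1428306_at) encodes REDD1, an inhibitor of the growth kinase mTORC1. Its values were 11.20 and 10.87 at P54, 9.22 on P59 replicate 1 and 10.94 on P59 replicate 2. A single array, P59 replicate 1, was low, and P59 replicate 2 lay between the P54 arrays. The difference was -0.95 (SE 0.45, 95% interval -1.95 to 0.04), with an unadjusted p of 0.0580 and an adjusted p of 0.787 in limma. Without P59 replicate 1 it was -0.09. Without P59 replicate 2, the array with the wide gap in its control sets, it was -1.81 and passed (limma adjusted p = 0.0332), then resting on 1 late array, in a fit in which 29 genes passed. Hypoxia response genes, which share an inducer with Ddit4, had a median of 0.19, with 9 of 10 tested higher by sign of a list of 12, but leaving out P54 replicate 2 brought the median to 0.0085 and leaving out P54 replicate 1 to 0.33. Of these 0 passed limma's adjusted threshold or an unadjusted p under 0.05, and the glucose transporter gene Slc2a1 differed by 0.42 (limma adjusted p = 0.849).

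Cdkn1a (1424638_at) encodes p21, which arrests the cell cycle. Its log2 intensity was 10.73 and 11.02 on the P54 arrays and 10.60 and 10.49 on the P59 arrays, the only member with both P59 arrays below both P54 arrays. The difference was -0.33 (SE 0.23, 95% interval -0.85 to 0.18, limma adjusted p = 0.916), and -0.28 without P59 replicate 2. A second set differed by -0.82, at 7.20 and 8.22 at P54 and 6.90 and 6.88 at P59. Among 10 tested targets of p53, of a list of 13, 5 were higher and 5 lower with a median of -0.01, and -0.12 to 0.09 with any 1 array left out. Limma's adjusted threshold was passed by 0 of them and an unadjusted p under 0.05 by 1, the receptor gene Eda2r (0.93, limma adjusted p = 0.329).

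**Figure D2:**
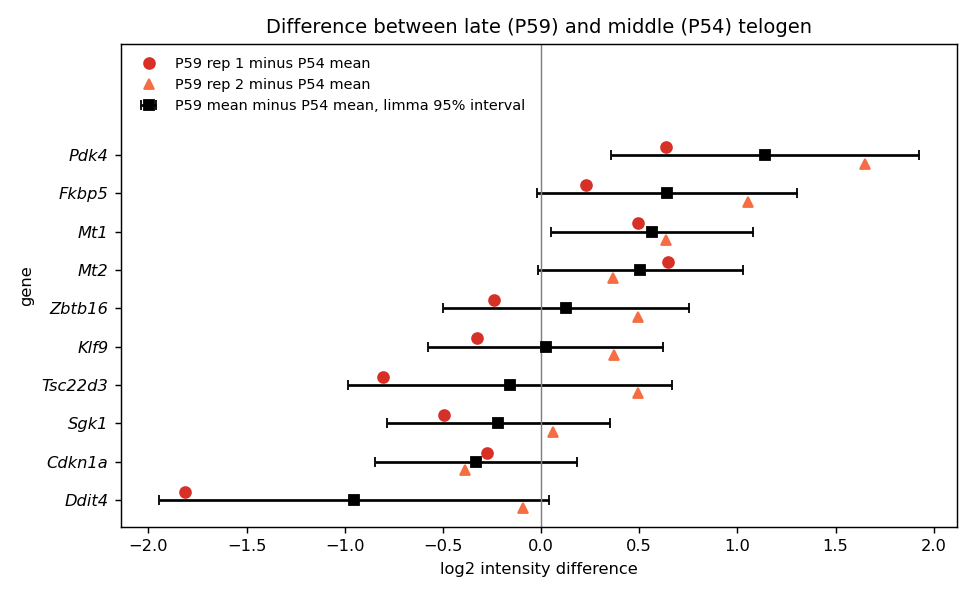
Log2 difference of each gene between P59 and P54, as the mean with limma's 95% interval (squares) and for each P59 array against the P54 mean (circles and triangles). The 2 arrays lie on opposite sides of 0 for Zbtb16, Klf9, Tsc22d3 and Sgk1, and the interval excludes 0 for Pdk4 and Mt1 alone, before any adjustment.

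For most of the 10 genes the arrays of late telogen lay far apart. The median absolute gap between the P59 arrays was 0.71 for the 10 genes and 0.30 over all genes tested. Between the P54 arrays it was 0.29 for the 10 genes and 0.19 over all. Ddit4 had a gap of 1.72 at P59, wider than that of 99.3% of all genes, Tsc22d3 one of 1.30 (98.0%) and Pdk4 one of 1.02 (95.7%). Fkbp5 followed with 0.82, Zbtb16 with 0.73, Klf9 with 0.70 and Sgk1 with 0.55, all higher on P59 replicate 2, the array with the wide gap in its control sets. These are gaps of the brightest set of each gene. The dimmer set of Fkbp5 above the filter had a gap of -2.20 (replicate 2 minus replicate 1), and the sets of Klf9 above the filter had gaps between -0.86 and 1.03. Mt1, Mt2 and Cdkn1a had gaps of 0.15, 0.28 and 0.11.

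P59 replicate 1 was the lowest of the 4 arrays for 5 of the 10 members, Tsc22d3, Zbtb16, Sgk1, Klf9 and Ddit4, against 26.5% of all genes tested. P59 replicate 2 was the highest for 6 members, Fkbp5, Tsc22d3, Zbtb16, Mt1, Klf9 and Pdk4, against 46.4% of all genes. Against the P54 mean, the median of the 10 genes was -0.26 on P59 replicate 1 and 0.43 on P59 replicate 2, and that of all genes -0.003 and 0.13. Both comparisons share the P54 arrays. Among the members Zbtb16 and Klf9 were the closest pair in their centred profiles over the 4 arrays, with a Euclidean distance of 0.23, and Ddit4 and Pdk4 the farthest, with 2.17.

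**Figure D3:**
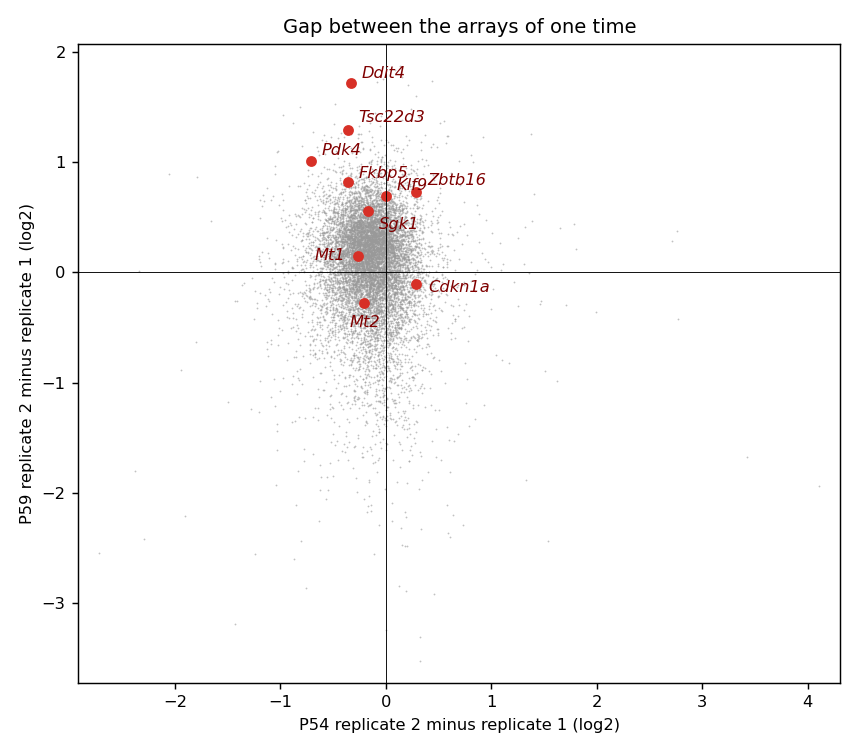
Gap between the arrays of 1 time, P54 on the horizontal and P59 on the vertical axis (log2, replicate 2 minus replicate 1), for all 10916 genes tested (grey) and the 10 members (red). Ddit4, Tsc22d3 and Pdk4 stand above most genes on the vertical axis, with gaps of 1.72, 1.30 and 1.02, while Mt1, Mt2 and Cdkn1a lie near 0.

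By the same distance the genes closest to Fkbp5 over the 4 arrays were Papss2 (0.06), Aebp1 (0.07) and Mmrn1 (0.07). Those closest to Tsc22d3 were Otud1 (0.06), Kbtbd11 (0.17) and Btc (0.21). For Zbtb16 they were Gm13648 (0.03), Sema3e (0.04) and 1810019D21Rik (0.07). Likeness over 4 arrays is a description only.

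Probe sets of 1 gene did not always share a direction. Several sets lay above the filter for 6 members, and in 4 of these 6 the sets differed in the sign of their P59 difference, as in 41.0% of the 4200 genes of that kind. Fkbp5 was the extreme: a second set was at 8.79 and 8.65 at P54, 9.07 on P59 replicate 1 and 6.87 on P59 replicate 2. The 2 sets of Fkbp5 were close to each other on 3 arrays, relative to their P54 means, and moved apart on P59 replicate 2, where the brighter set lay 0.98 above and the dimmer 1.97 below the mean of the other arrays. That spread of 2.94 between sets was wider than in 99.0% of genes with several sets, whose median was 0.39. With the mean of all sets Fkbp5 differed by -0.055.

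Klf9 had 6 sets above the filter and a spread of 1.85 on P59 replicate 2 (94.3%). Its sets lay between -0.70 and 0.18 in their P59 difference, and with the mean of all sets Klf9 differed by -0.26. On P59 replicate 1 the 6 sets were alike in lying below the P54 mean. For Tsc22d3 the second brightest set, at 12.08 and 11.81 at P54 and 10.85 and 11.43 at P59, lay below P54 on both P59 arrays and differed by -0.80. Low values on P59 replicate 1 were thus shared by both bright sets of Tsc22d3, while P59 replicate 2 was above P54 in 1 and below it in the other. A dimmer set of Tsc22d3 differed by 0.05. The second set of Zbtb16 was at 8.54 and 8.38 at P54 and 8.77 and 9.50 at P59, a difference of 0.68. By their suffixes that set, the dimmer set of Tsc22d3 and the set of Klf9 at -0.70 may also read other transcripts. The opposite sign among the sets of Tsc22d3 rests on that dimmer set. Sgk1, Mt2, Ddit4 and Pdk4 had 1 set each, so that no second reading was used for them.

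**Figure D4:**
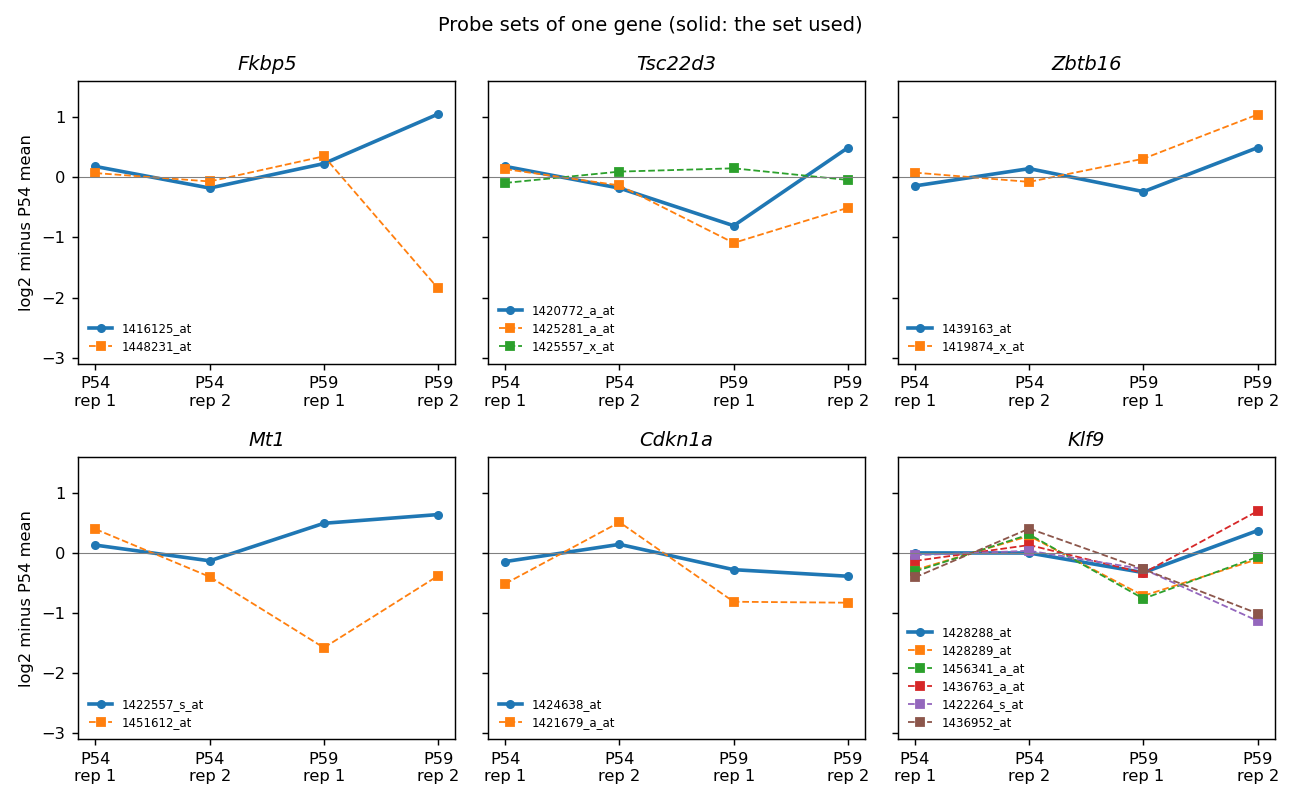
Probe sets above the filter for the 6 members with several, each as log2 intensity minus its own P54 mean on the 4 arrays, with lines joining the points of a set as a guide only. The sets of Fkbp5 part on P59 replicate 2, at 1.05 and -1.85 against their P54 means, and those of Klf9 lie there between -1.13 and 0.70.

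The receptor itself showed no difference past the test. Nr3c1, the glucocorticoid receptor gene, read 10.83 and 10.70 on the P54 arrays, then 10.41 and 10.88 on the P59 arrays, with overlapping groups and a difference of -0.12 (95% interval and adjusted p from limma: -0.67 to 0.43 and 0.973), at -0.35 without P59 replicate 2 and 0.11 without P59 replicate 1. Hsd11b1 encodes the enzyme that makes active corticosterone from its inert form inside the cell. Its values were 9.10 and 8.62 for P54, 9.32 and 9.78 for P59, higher on both P59 arrays, with a difference of 0.69 (limma unadjusted p = 0.0270, adjusted p = 0.672) and 0.46 without P59 replicate 2. H6pd, which supplies that enzyme with NADPH, differed by 0.41 (limma adjusted p = 0.870). The mineralocorticoid receptor gene Nr3c2, between 52.0 and 73.4 on the linear scale, and Hsd11b2, whose enzyme inactivates corticosterone, between 19.5 and 23.8, were below the filter and were not tested. Of the 8 genes of receptor and ligand access 5 were tested, 3 of them higher and 2 lower, and 0 passed limma's adjusted threshold, with Hsd11b1 the 1 at an unadjusted p under 0.05.

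Chaperones of the receptor complex were mostly lower, 7 of 9 tested of a list of 12, with a median of -0.38. In that list 0 passed limma's adjusted threshold and 1 an unadjusted p under 0.05: Dnajb1, an Hsp40 cochaperone gene, at 10.77 and 10.36 at P54 and 9.75 and 9.82 at P59 (-0.77, limma adjusted p = 0.511). Fkbp4, whose product competes with that of Fkbp5 for the receptor, was at 10.13 and 9.71 at P54, 9.85 on P59 replicate 1 and 9.05 on P59 replicate 2. Its difference of -0.47 (limma adjusted p = 0.891) was -0.07 without P59 replicate 2, and the median of the list was then -0.04. Among 12 tested coregulators of 14, 5 were higher and 7 lower with a median of -0.06 (0.19 without P59 replicate 1, 0.06 without P54 replicate 1 and -0.14 without P59 replicate 2), and 0 passed either threshold of limma. Of 11 genes of local steroid synthesis 2 were above the filter, Cyp17a1 (0.32, limma adjusted p = 0.934) and Cyp21a1 (0.09, limma adjusted p = 0.979, and 0.016 without P59 replicate 2).

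Other genes known to be induced by glucocorticoids were read from a list of 28 of which 26 were tested. By sign 12 were higher and 14 lower, with a median of -0.09. Limma's adjusted threshold was passed by 0, and an unadjusted p under 0.05 by 7, 3 higher and 4 lower, beside 6.49% of all genes tested. P59 replicate 1 was the lowest array for 16 of the 26, as for 5 of the 10 members, against 26.5% of all genes tested. Without P59 replicate 2 the median was -0.33 and without P59 replicate 1 it was 0.12, and 0.09 without P54 replicate 1.

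Per1, a clock gene that the receptor induces directly, was lowest in p: 10.63 and 10.23 at P54 against 9.05 and 8.81 at P59. Both P59 arrays were low, and Per1 was 2.83-fold lower (limma adjusted p = 0.106), with a log2 difference of -1.38 without P59 replicate 2. Errfi1, an inhibitor of the EGF receptor, was at 12.21 and 11.73 at P54, 9.49 on P59 replicate 1 and 11.03 on P59 replicate 2 (-1.71, limma adjusted p = 0.348, and -2.48 without P59 replicate 2). The phosphatase gene Dusp1 was at 11.93 and 11.25 at P54, 10.38 on P59 replicate 1 and 11.10 on P59 replicate 2. Like Ddit4, Errfi1 and Dusp1 were lowest on P59 replicate 1. In the other direction the muscle ubiquitin ligase genes Trim63 and Fbxo32, which act in glucocorticoid-induced wasting, differed by 0.76 and 0.71 (limma adjusted p = 0.497 and 0.588), and by 0.82 and 0.48 without P59 replicate 2.

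**Figure D5:**
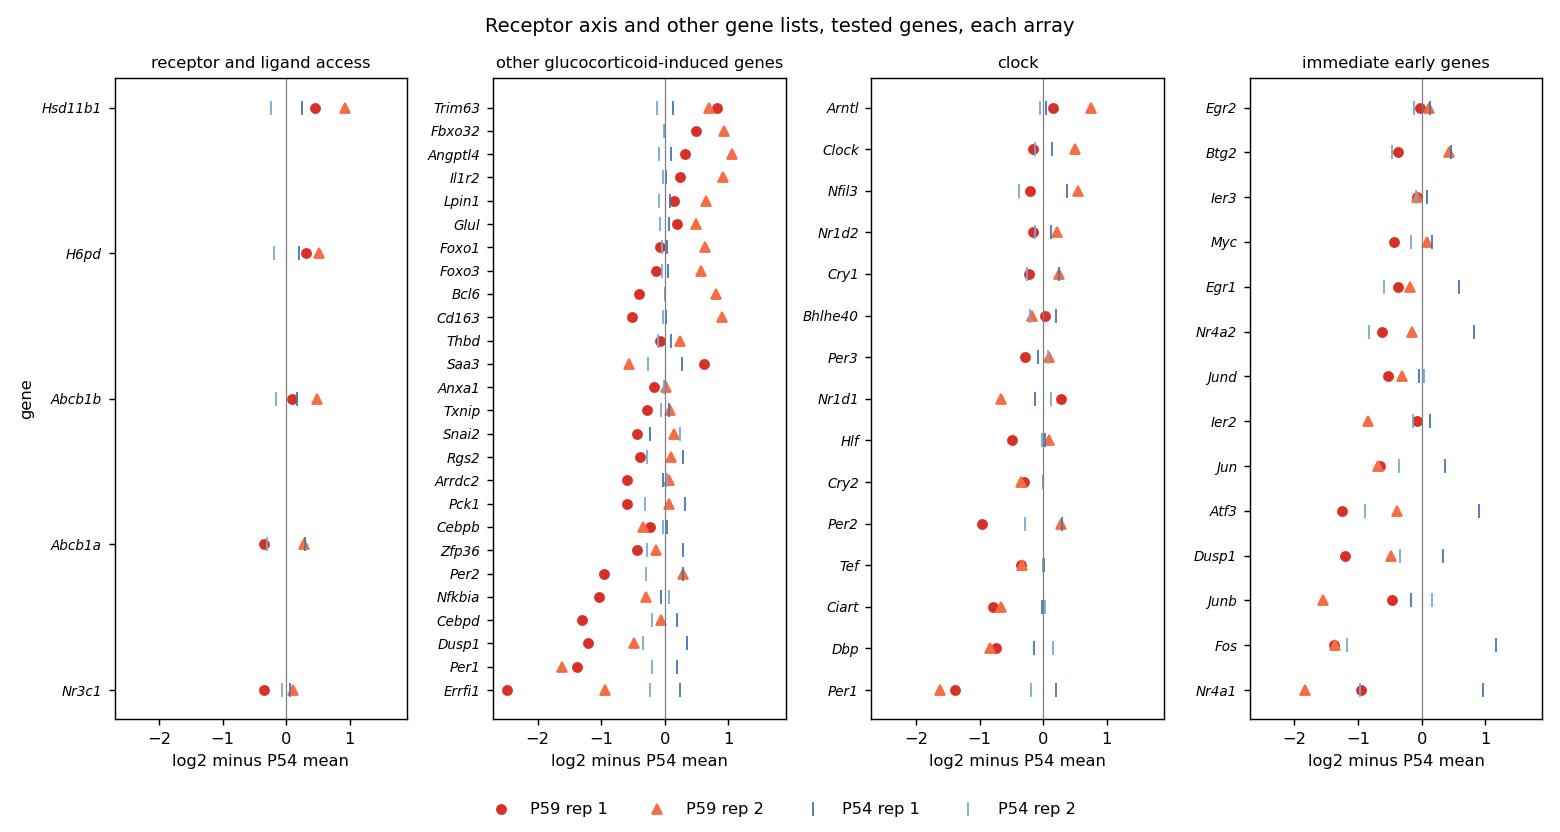
Tested genes of 4 lists, ordered by their mean difference, each array as log2 intensity minus the gene's P54 mean (circles and triangles for P59, ticks for P54). Errfi1, Per1, Dusp1 and Cebpd lie to the left on P59 replicate 1, and the immediate early genes Fos and Nr4a1 are high on P54 replicate 1 alone.

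Clock genes and immediate early genes overlap with these targets and also differed between arrays. Of 15 tested clock genes, of a list of 18, 5 were higher and 10 lower with a median of -0.19, which was 0.09 without P59 replicate 1 and -0.29 without P59 replicate 2. In limma 0 passed the adjusted threshold and 3 an unadjusted p under 0.05, all lower: Per1, Dbp (-0.79, adjusted p = 0.490) and Ciart (-0.73, adjusted p = 0.498). No source used here gives the hour of sampling, and the part of the clock in the values of the 10 genes was not tested. Of 14 tested immediate early genes of 16, 2 were higher and 12 lower, with a median of -0.44, 0 past limma's adjusted threshold and 5 lower at an unadjusted p under 0.05. Beside both lists, 3.01% of all genes tested were lower at that limit. Fos was at 12.19 on P54 replicate 1 and between 9.64 and 9.85 on the other 3 arrays, and without P54 replicate 1 the median of that list was -0.11, against -0.85 without P54 replicate 2. Of the 10 members, Sgk1 and Ddit4 had their highest value on P54 replicate 1, though Sgk1 was at 11.75 there and 11.72 on P59 replicate 2. The share of all genes highest on that P54 array was not counted. A link of these members to the immediate early genes was not tested.

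Of 18 genes that glucocorticoids hold down in inflammation, 7 lay above the filter, and these 7 were higher on average at P59, where 58.4% of all genes were. A gene that clears the filter through its P59 values had to be higher, as for the chemokine gene Ccl7, at 6.93 and 6.15 at P54, 7.82 on P59 replicate 1 and 6.11 on P59 replicate 2. Ccl7 and the chemokine gene Cxcl10 lay below the P54 mean on P59 replicate 2, by -0.43 and -0.27 on the log2 scale. Of the 7 genes 0 passed limma's adjusted threshold and 3 an unadjusted p under 0.05, beside 3.47% of all genes tested that were higher at that limit. The 3 were the adhesion receptor genes Icam1 (0.84, limma adjusted p = 0.545) and Vcam1 (0.93, adjusted p = 0.599) and the protease gene Mmp3 (0.72, adjusted p = 0.656). With P59 replicate 2 left out these differed by 0.52, 0.53 and 0.36. Il1b, Il6 and Tnf were below the filter. Macrophage markers summed to 9574 and 8757 at P54 and 11585 and 11556 at P59, with 9 of 9 above the filter and 8 of 9 higher on average. They did not agree on P59 replicate 2. There C1qa, C1qb and C1qc lay at -2.83, -0.22 and -0.02 against their P54 means, and the other markers lay above theirs. The part of macrophages in the values of the inflammatory list was not tested.

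Relatives of the members in their own families were read from a list of 18. Of 16 tested, 6 were higher and 10 lower with a median of -0.07 (0.14 without P59 replicate 1, 0.08 without P54 replicate 1 and -0.02 without P59 replicate 2), and in limma 0 passed the adjusted threshold and 1, Mt4, an unadjusted p under 0.05. Klf4, a barrier transcription factor gene, differed by -0.44 (limma adjusted p = 0.871, and -0.73 without P59 replicate 2) and Cdkn1c, which encodes p57, by 0.37 (limma adjusted p = 0.884). Among the relatives of Tsc22d3 the differences were -0.09 for Tsc22d1, -0.27 for Tsc22d2 and -0.21 for Tsc22d4, and Sgk3 differed by 0.34. With P59 replicate 2 left out they were -0.25, -0.76, -0.18 and 0.08. The gene Klf13 repeated the order of Klf9, at 10.05 and 10.25 at P54, 9.51 on P59 replicate 1 and 10.67 on P59 replicate 2, with a difference of -0.06, or -0.64 without P59 replicate 2.

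Markers of other cell types were read beside the members. Inner root sheath markers summed to 742 and 391 at P54, 12098 on P59 replicate 1 and 2151 on P59 replicate 2. Suprabasal keratinocyte markers summed to 51517 and 54593 at P54 and 42961 and 46195 at P59, and fibroblast markers to 98436 and 96023 at P54 and 96612 and 101700 at P59. The sebocyte, T cell, mast cell, endothelial, melanocyte, Schwann cell and erythrocyte lists had medians of 0.11, 0.11, 0.34, -0.15, -0.29, -0.27 and -0.06, from 2 tested genes for Schwann cells and 1 for erythrocytes. Each of these medians moved by over 1.5 times with some single array left out. The melanocyte median was 0.42 and the erythrocyte median -0.009 without P59 replicate 2, and that of Schwann cells 0.03 without P54 replicate 1. Of 8 neutrophil markers 2 were above the filter, S100a8 and S100a9, and both cleared it only through P59, so that their difference says nothing of the list. S100a8 was at 6.36 and 6.34 at P54 and 8.28 and 8.77 at P59 (limma adjusted p = 0.0387). The neutrophil markers Camp, Ngp, Cxcr2 and Mpo were below the filter, with differences of -0.15, 0.04, 0.19 and 0.30. Without P59 replicate 2 Camp was at -0.02 and Ngp at 0.10. The part of these shifts in the values of the 10 genes was not tested.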

How the data were processed

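Per the labels' protocols, shaved dorsal skin was taken after death into an RNA-preserving solution, and biotin-labelled cRNA from Trizol-extracted total RNA was hybridised. The authors deposited intensity values on a linear scale; the submitters' processing notes name RMA and Affymetrix Expression Console, with versions not given in the sources used here. Values were taken to log2 with no pseudocount. Of 45101 probe sets, 34945 had 1 gene symbol; the brightest set of each of 18193 genes was used, and genes whose mean log2 intensity exceeded 6.58, the 40th percentile, were tested (10916). The fit of P59 minus P54 used lmFit and eBayes of limma 3.58.1 under R 4.3.3, with Benjamini-Hochberg adjustment over all genes tested and a threshold of 0.05. In eBayes each gene's own variance, with 2 degrees of freedom, was combined with a variance shared over all genes, with 8.18. The fit was tested on simulated data. An exact two-sided permutation test of 2 against 2 cannot go below 0.333, and the number of arrays limits precision. Named were the 10 members, Nr3c1, Nr3c2, Hsd11b1 and Hsd11b2, up to 4 genes of each list with the smallest p, and the 3 nearest genes of Fkbp5, Tsc22d3 and Zbtb16. Others were named after their values were seen: Slc30a1, Mtf1, Pdk3, Pdk2, H6pd, Fkbp4, Klf13, Sgk3, Tsc22d1, Tsc22d2, Tsc22d4, Cebpd, Fos, Ccl7, Camp, Ngp, Cxcr2, Mpo, Il1b, Il6, Tnf and the markers Krt10 and Col1a1. The macrophage markers C1qa, C1qb and C1qc were also named after their values were seen. The members and lists were chosen with earlier results of these data known.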

Additional observations from a re-analysis of the deposited data

How the results depend on the processing

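Each choice was changed alone. Of 120 values of single members under 12 alternatives, 107 kept direction and side of limma's adjusted threshold, 10 changed sign and 3 passed. With the mean of all probe sets Fkbp5 was at -0.0554, Mt1 at -0.21 and Klf9 at -0.26, and after repeated quantile normalization Klf9 was at -0.0176. When single arrays were left out, Tsc22d3 lay between -0.81 and 0.49, Zbtb16 between -0.24 and 0.49, Sgk1 between -0.49 and 0.0598 and Klf9 between -0.33 and 0.37. The median of the 10 genes ranged from -0.26 to 0.43. The number of members at an unadjusted p under 0.05 was 2 as reported, 4 with a filter at the 60th percentile (457 of 7277 genes in all), 5 with an intensity trend (729 of 10916) and 1 to 3 with an array left out (273 to 2030 of 10916). Over all genes, 2 passed the adjusted threshold as reported. The count was 0 without the filter, with the filter at the 60th percentile, with the mean of all sets, with every set tested or after quantile normalization (457 to 1122 at an unadjusted p under 0.05), and 29 to 402 with an array left out. With the replicate number as a replicate block, 156 genes passed, among them Pdk4 (adjusted p = 0.0195). The labels do not say that the numbers pair the arrays, and same-numbered deviations correlated at -0.04 across genes. With an array left out, 1 time holds a single array, which is assumed to vary like the other pair. The number of arrays, 2 per time, limits all of these values.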
